A study of Mus musculus with 6 samples.

Results

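The 30 genes described here belong to the unfolded protein response and the heat shock response, and were taken from the deposited gene table of small intestine RNA by symbol. All 30 were found among its 45777 rows. They fall into 17 genes of endoplasmic reticulum (ER) chaperones and ER-associated degradation (ERAD), 6 genes of the branch that runs through the transcription factor ATF4, and 7 heat shock genes of the cytosol. All 30 were among the 18456 genes that passed the filter on low counts.

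The ER folds secreted and membrane proteins, and when unfolded protein builds up there, the sensors IRE1 and ATF6 raise the transcription of chaperones and degradation factors, while PERK slows translation. PERK, together with kinases that sense amino acid shortage, haem shortage or double-stranded RNA, also leads to ATF4, which drives genes of amino acid supply and, under lasting stress, the factor CHOP. The heat shock response is separate from both, since HSF1 answers unfolded protein in the cytosol and nucleus. In the intestine, goblet, Paneth and plasma cells secrete heavily and are known for a large ER.

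Total RNA was sequenced from mouse small intestine in 6 libraries, 3 labelled PKCzeta overexpression (replicates 2-1, 4-1 and 4-2) and 3 labelled GFP control (replicates 1-1, 1-4 and 3-1). Prkcz encodes PKCzeta, an atypical member of the protein kinase C family, and GFP is a green fluorescent protein. DIO opens all 6 titles without an explanation, and the labels used here give no strain, age, vector or receiving cell type. The stated aim was to find genes that change with Prkcz overexpression.

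Total counts ran from 77573133 to 87572356 in the PKCzeta libraries and from 85411847 to 93742978 in the GFP libraries. Levels are CPM, which are TMM-scaled counts made comparable between libraries of unequal depth, and fold changes are PKCzeta over GFP on the log2 scale with their standard error (SE). Prkcz stood at 82.5, 100.07 and 57.0 CPM in the PKCzeta libraries, against 70.5, 98.6 and 96.9 CPM in the GFP libraries. The targeted gene was thus not higher with the PKCzeta label, so every direction below is one between labelled libraries. Whether reads of the introduced gene would be counted under Prkcz is not given in the labels, which limits what these values say of the labels. Summed markers of enterocytes, goblet cells and Paneth cells were abundant in all 6 libraries, as the labelled tissue has them. The enterocyte marker Lct, however, was at 3.20, 63.3 and 2.31 CPM in PKCzeta replicates 2-1, 4-1 and 4-2. In GFP replicates 1-1, 1-4 and 3-1 it was at 116, 200.3 and 39.6 CPM. Lct was picked after its values were seen and had the widest range of the 12 enterocyte markers, 86.9 times from lowest to highest library. The narrowest was that of Krt20, at 1.70 times. The labels do not say whether the replicates came from separate animals. The p-values thus weigh a label difference against variation between libraries, which may not be that between animals. Nor do they explain the first digit of a replicate, which GFP replicates 1-1 and 1-4 share, as do PKCzeta replicates 4-1 and 4-2. If it marks a cage or batch, those libraries are not independent, and the SEs and p-values may be too small. Because no first digit occurs in both groups, a difference between labels could then not be told apart from one between batches. The sum of 6 Paneth cell markers, all of them tested, was 5979, 12240.5 and 18933 CPM in the PKCzeta libraries 2-1, 4-1 and 4-2, against 5860, 22080 and 8866 CPM in the GFP libraries 1-1, 1-4 and 3-1. The share of counts from mitochondrial genes was 9.19%, 5.67% and 2.92% in the PKCzeta libraries, against 9.08%, 3.37% and 10.7% in the GFP libraries. In whole tissue, fewer cells of a type and less RNA per cell cannot be told apart.

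The chaperones were among the abundant transcripts of the tissue. On the deposited TPM scale, which divides by transcript length, 28 of the 30 genes had a mean over 6 libraries above the median of all tested genes. The order was led by Hspa8, the constitutive cytosolic HSP70, at 861 TPM, followed by the lectin chaperone gene Calr at 395 TPM and Hspa5, the ER HSP70 also called BiP, at 337 TPM. Canx and Hsp90b1 came next with 253 and 227 TPM. At the other end stood Hspa1a, a stress-inducible HSP70 gene, with 2.66 TPM, and Syvn1, the ubiquitin ligase of ERAD, with 3.11 TPM. Group medians of TPM were 81.8 for the ER genes, 7.76 for the ATF4 branch and 15.7 for the heat shock genes, so the ER set was the most abundant by its median. Hspa5 alone ran from 168 TPM in PKCzeta replicate 2-1 to 654 TPM in PKCzeta replicate 4-2, so neighbours in this order overlapped, as the plot of TPM levels shows.

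**Figure D1:**
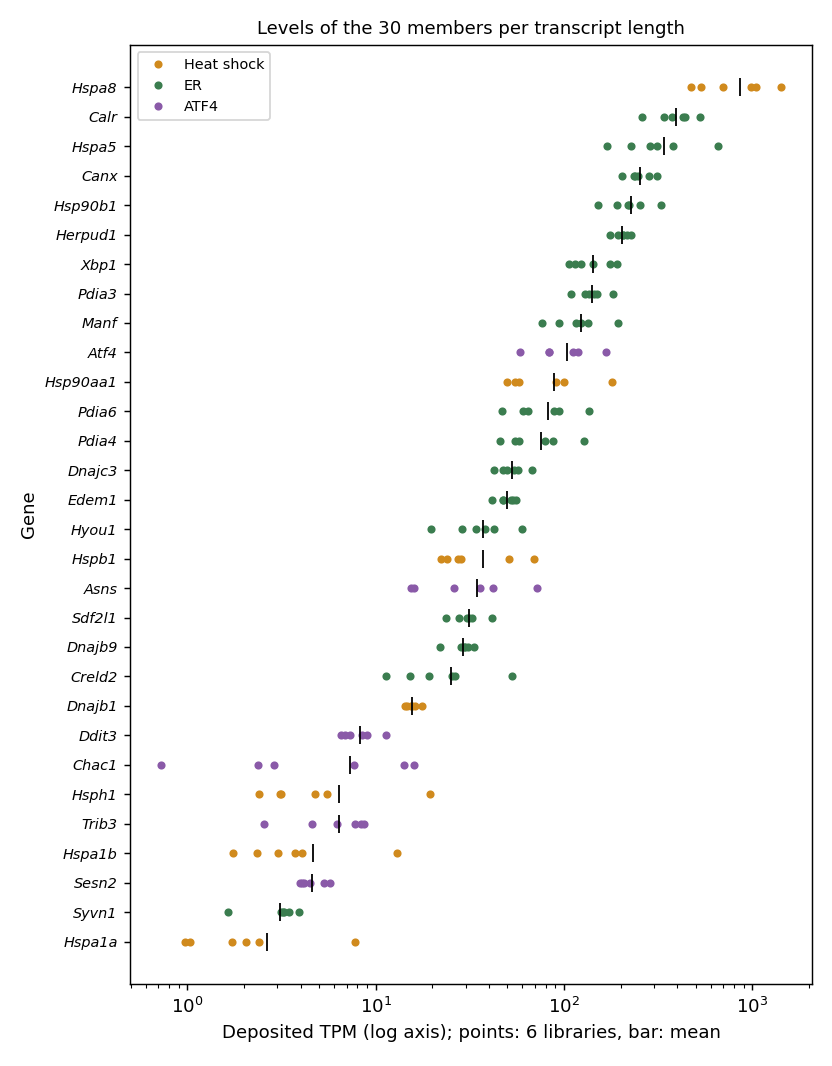
Deposited TPM of the 30 genes in each of the 6 libraries, on a log axis, with the mean over 6 libraries as a bar and the gene group as the colour. Hspa8 leads with a mean of 861 TPM and Hspa1a is last with 2.66 TPM, while the points of Chac1 are spread widest and Hsph1, Hspa1b and Hspa1a each have 1 point far above the others.

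None of the 30 genes passed edgeR's quasi-likelihood test at an adjusted p of 0.05, nor did any other gene (0% of the 18456 tested), and the smallest adjusted p among the 30 was 0.871. With an unadjusted p under 0.05, 1 of the 30 was higher and 0 were lower, against 2.41% and 3.07% of all tested genes. CPM ranges of the groups did not overlap for 1 gene that was higher (Hspb1) and 1 that was lower (Herpud1), where 4.72% and 5.66% of all tested genes did so. DESeq2 called 76 of all tested genes and 0 of the 30, with a smallest adjusted p of 0.481 among them. Fold changes were above 0 for 13 of the 30 genes (4 of 17 ER, 3 of 6 ATF4 branch and 6 of 7 heat shock genes), beside 54.3% of all tested genes. Median log2 fold changes were -0.11 for the ER genes, -0.080 for the ATF4 branch and 0.59 for the heat shock genes, beside 0.035 for all tested genes. On log2(TPM + 1), a scale that moved the median of all genes to 0.14, they were 0.12, 0.15 and 0.54 in the same order, so the sign for the ER genes and the ATF4 branch depends on the scaling. The difference between these medians was not tested. In 29 of the 30 genes the spread among the 3 PKCzeta libraries was wider than the difference between the group means, beside 83.8% of all tested genes.

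PKCzeta replicate 4-2 was the highest of the 6 libraries for 15 of the 30 genes (7 of 17 ER, 3 of 6 ATF4 branch and 5 of 7 heat shock genes), where it was so for 23.1% of all tested genes, and PKCzeta replicate 2-1 was the lowest for 16 (13, 2 and 1 of them), where it was so for 12.3%. Hspa5, Hsp90b1, Pdia4, Pdia6, Creld2, Manf, Hyou1, Ddit3, Asns, Hsph1 and Dnajb1 had both ends of their range inside the PKCzeta group. Median deviations from a gene's mean over the 6 libraries, on the log2 scale, show how far this went. For the ER genes they were -0.29, 0.012 and 0.13 in PKCzeta replicates 2-1, 4-1 and 4-2, against 0.026, 0.032 and 0.14 in GFP replicates 1-1, 1-4 and 3-1. For the heat shock genes they were -0.44, 0.085 and 0.83 in the PKCzeta libraries, against -0.48, 0.16 and -0.27 in the GFP libraries. The ATF4 branch gave -0.24, 0.024 and 0.32 against -0.047, 0.28 and -0.62, in the same order of libraries. Replicate 4-2 was the top library in the heat shock and ATF4 sets, and the bottom one was PKCzeta replicate 2-1 for ER genes, GFP replicate 1-1 for heat shock genes and GFP replicate 3-1 for the ATF4 branch.

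**Figure D2:**
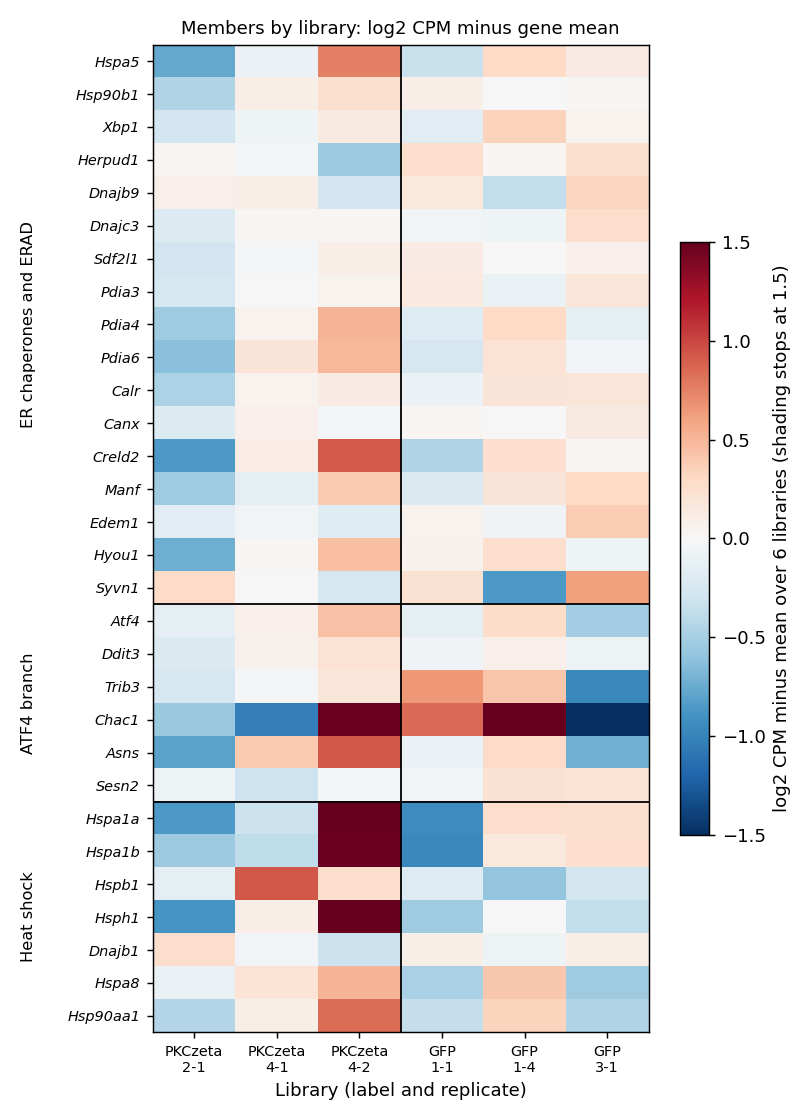
Log2 CPM of each gene minus its mean over the 6 libraries, with genes down the page by group and PKCzeta libraries left of GFP libraries. Red cells gather in PKCzeta replicate 4-2, the highest library for 15 of the 30 genes, and blue cells in PKCzeta replicate 2-1, the lowest for 16.

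Among the ER chaperones, Hspa5 differed more between PKCzeta libraries than between the labels. Hspa5 was at 361, 581 and 1041 CPM in the PKCzeta libraries, against 490, 761 and 671 CPM in the GFP libraries. Its highest and its lowest value were both in PKCzeta libraries, and the ranges overlapped fully. Hspa5 averaged 661 ± 347 CPM with the PKCzeta label and 641 ± 138 CPM with the GFP label (SD, n = 3 each). On the log2 scale this was 0.046 (SE 0.37, 95% interval -0.81 to 0.90, edgeR adjusted p 0.990). Without PKCzeta replicate 4-2 it was -0.44. Creld2, an ER protein induced by ER stress that was picked after its values were seen, had the same shape, with 13.1, 25.6 and 44.9 CPM in the PKCzeta libraries against 17.4, 28.4 and 24.0 CPM in the GFP libraries. Its log2 fold change was 0.26 (SE 0.41), and -0.26 without PKCzeta replicate 4-2.

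The promoter letters of the ER genes were searched for elements known to bind ATF6 with NF-Y or XBP1. The windows shown, from RefSeq on GRCm38.p6, run from 250 bases before to 50 after the start site, and a window was found for 26 of the 30 genes (not for Hsp90aa1, Hspa8, Hyou1 and Manf). The ER stress response element (ERSE), searched on both strands as CCAAT and CCACG with any 9 bases between them, was found in 8 of the 15 ER genes with a window, 0 of 6 in the ATF4 branch and 0 of 5 heat shock genes, beside 0.119% of all 32851 windows. Because the ER genes were listed for their known part in this response, that contrast is a description and not a test. The 8 were Hspa5, Hsp90b1, Calr, Canx, Pdia6, Dnajc3, Creld2 and Syvn1. Of these, Hspa5, Pdia6 and Creld2 had a log2 fold change above 0 and the remaining genes one below 0. Each of the 8 values was smaller than its SE and changed sign in some alternative setting, so the split says little of these genes. The second form of the element, ERSE-II, searched as ATTGG and CCACG with any 1 base between them, was found in Herpud1 alone among the 26 genes, beside 0.0365% of all windows. The XBP1 and ATF6 motif TGACGTGG, whose last 5 letters on the other strand are the CCACG of both elements, was found in 0 of the 26 genes, beside 0.676% of windows. Capitals in the 3 windows that follow mark ERSE in Hspa5 (chr2:34771840-34772139, + strand) and Creld2 (chr15:88819396-88819695, + strand) and ERSE-II in Herpud1 (chr8:94386179-94386478, + strand). Hspa5 and Creld2 are shown because both were highest in PKCzeta replicate 4-2 and lowest in 2-1, and Herpud1 because it was lowest in 4-2. Of the other genes with ERSE, Hsp90b1 and Pdia6 had that top and bottom library too. Calr, Canx, Dnajc3 and Syvn1 were highest in a GFP library. Neither element was found in Pdia4, also highest in 4-2 and lowest in 2-1, or in Edem1, lowest in 4-2. A link between element and library was not tested.
Hspa5: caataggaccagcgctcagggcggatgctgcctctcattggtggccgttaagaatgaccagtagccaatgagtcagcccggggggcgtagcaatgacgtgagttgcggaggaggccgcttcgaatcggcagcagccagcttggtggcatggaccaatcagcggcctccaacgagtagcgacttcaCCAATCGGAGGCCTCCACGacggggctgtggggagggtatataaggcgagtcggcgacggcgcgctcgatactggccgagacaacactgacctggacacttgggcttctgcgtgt
Creld2: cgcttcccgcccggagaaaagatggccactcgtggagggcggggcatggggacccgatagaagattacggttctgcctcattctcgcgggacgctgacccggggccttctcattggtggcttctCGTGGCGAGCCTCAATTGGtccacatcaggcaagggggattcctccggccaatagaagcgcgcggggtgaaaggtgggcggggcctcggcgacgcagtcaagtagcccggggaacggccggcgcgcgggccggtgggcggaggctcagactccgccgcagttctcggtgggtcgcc
Herpud1: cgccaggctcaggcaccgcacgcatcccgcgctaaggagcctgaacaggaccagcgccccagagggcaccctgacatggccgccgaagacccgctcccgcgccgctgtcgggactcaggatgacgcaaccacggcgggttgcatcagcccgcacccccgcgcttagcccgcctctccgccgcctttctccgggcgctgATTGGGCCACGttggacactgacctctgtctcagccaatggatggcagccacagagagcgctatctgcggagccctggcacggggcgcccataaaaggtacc

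The other ER folding factors had fold changes near 0, each with an edgeR adjusted p of 0.931 or more. Pdia3, a disulfide isomerase that works with calnexin and calreticulin, was at 242, 291 and 300.1 CPM in the PKCzeta libraries, against 320, 270.0 and 328 CPM in the GFP libraries. These ranges overlapped, with a log2 fold change of -0.14 (SE 0.16). Its relatives Pdia4 and Pdia6 had 0.068 (SE 0.27) and 0.10 (SE 0.28). Both stood highest in PKCzeta replicate 4-2, with 198 and 183 CPM, and lowest in PKCzeta replicate 2-1, with 96.3 and 84.2 CPM. The lectin chaperone genes Calr and Canx had -0.17 (SE 0.21) and -0.099 (SE 0.17), and Hsp90b1, the ER HSP90, had -0.051 (SE 0.20). Canx was the steadiest of the 30 genes, with 1.27 times between its highest and lowest library, where Hspa5 had 2.88 times. Hyou1, which exchanges the nucleotide of BiP, had -0.11 (SE 0.28), and Manf, a secreted ER stress protein, had -0.15 (SE 0.25). Sdf2l1, an ER protein that binds J-domain cochaperones, had -0.13 (SE 0.17), and Dnajc3, a J-domain cochaperone of BiP, had -0.11 (SE 0.16). Xbp1, the transcription factor that IRE1 activates by splicing, was at 200.5, 232 and 267 CPM in the PKCzeta libraries, against 216, 311 and 252 CPM in the GFP libraries (log2 fold change -0.16, SE 0.19). The gene count does not separate the spliced form of Xbp1.

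The ERAD genes Herpud1, Edem1, Dnajb9 and Syvn1 each had their highest value in a GFP library. So did the ER genes Xbp1, Dnajc3, Sdf2l1, Pdia3, Calr and Canx. Over all tested genes, GFP replicates 1-1, 1-4 and 3-1 were the highest library for 15.7%, 17.6% and 17.6%, so this is a common trait. Herpud1, which holds the degradation complex at the ER membrane, was at 318, 309 and 213 CPM in the PKCzeta libraries, against 376, 320 and 370 CPM in the GFP libraries. Herpud1 was the only ER gene of the 30 whose ranges did not overlap, though by a narrow gap, and its lowest library was PKCzeta replicate 4-2, where Hspa5 was highest. On the log2 scale the difference was -0.34 (SE 0.19, 95% interval -0.79 to 0.11, edgeR adjusted p 0.917), and -0.17 without PKCzeta replicate 4-2. Edem1, which hands misfolded glycoproteins to degradation, was at 208, 227 and 205 CPM in the PKCzeta libraries, against 241, 225 and 304 CPM in the GFP libraries (log2 fold change -0.27, SE 0.17, edgeR adjusted p 0.917). Those ranges overlapped through GFP replicate 1-4, and without GFP replicate 3-1 the log2 fold change was -0.12. Dnajb9, a J-domain cochaperone that brings clients to ERAD and BiP to IRE1, had -0.091 (SE 0.22), and Syvn1 had -0.093 (SE 0.37). Both were lowest in GFP replicate 1-4, with 32.6 CPM for Dnajb9 and 4.41 CPM for Syvn1, and both were next lowest in PKCzeta replicate 4-2, with 34.5 and 6.69 CPM. Syvn1 shares 89 bases with Mrpl49, which had 197% of its mean count, and no source used here says whether the counting used the strand, so reads of the pair may not be separate.

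**Figure D3:**
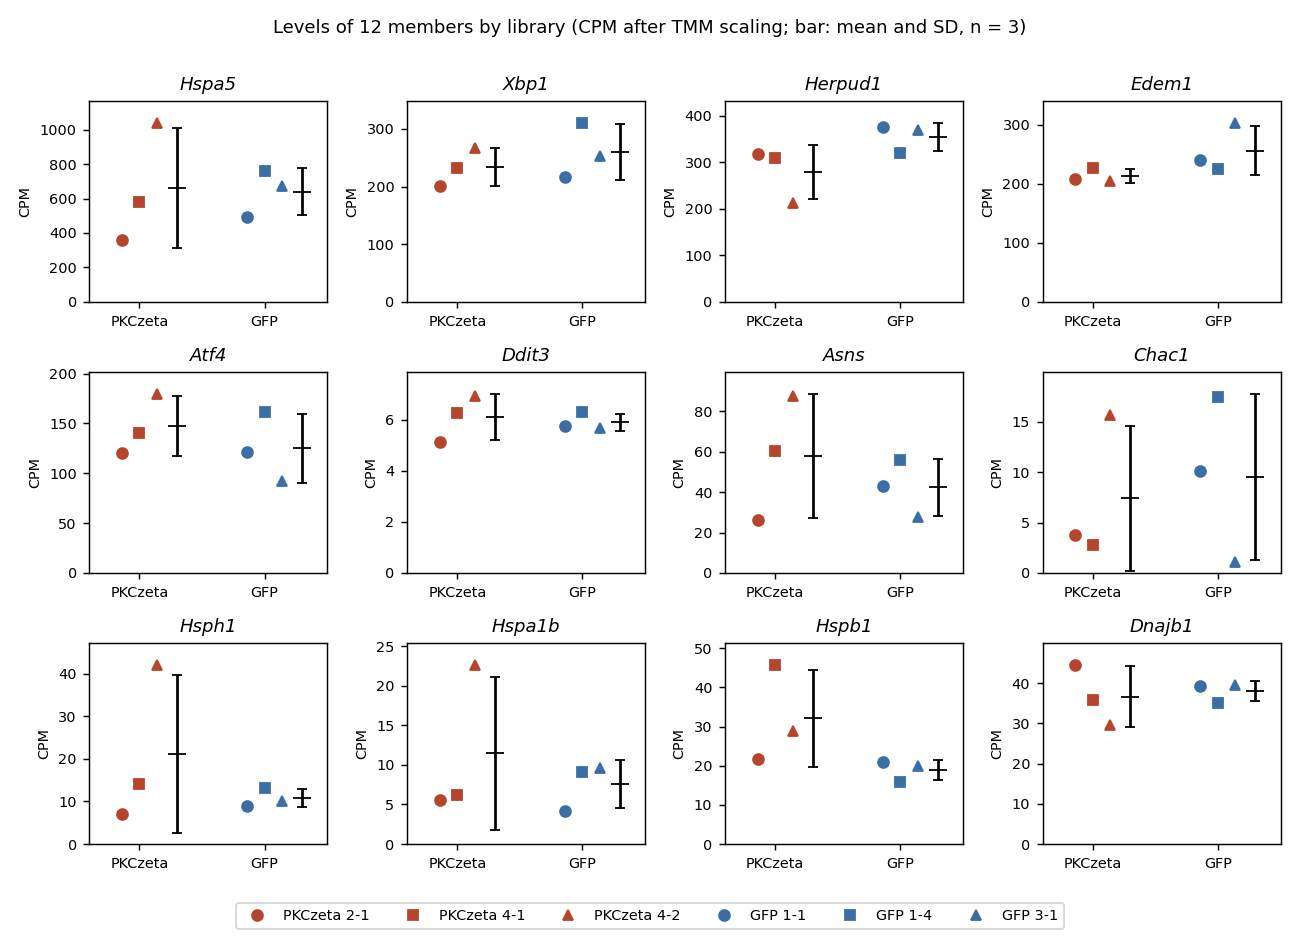
CPM of 12 of the 30 genes in each library, with PKCzeta left of GFP, the marker shape giving the replicate and the bar the mean and SD (n = 3 each). Hspa5, Hsph1 and Hspa1b peak in PKCzeta replicate 4-2, at 1041, 42.1 and 22.7 CPM, where Herpud1 is lowest at 213 CPM.

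The ATF4 branch had 3 of 6 genes higher and 3 lower, a split that moved with the setting. With voom weights 5 of 6 were higher (median 0.29), without GFP replicate 1-4 it was 4 of 6 (median 0.26), and without PKCzeta replicate 4-2 it was 2 of 6 (median -0.18). Atf4 itself was at 121, 141 and 180 CPM in the PKCzeta libraries, against 121, 161 and 92.5 CPM in the GFP libraries. The ranges overlapped, and the log2 ratio was 0.23 (SE 0.24, 95% interval -0.32 to 0.79, edgeR adjusted p 0.922). ATF4 protein is set mainly by translation, which these counts do not measure. Ddit3, which encodes CHOP, was at 5.14, 6.27 and 6.94 CPM in the PKCzeta libraries, against 5.75, 6.30 and 5.67 CPM in the GFP libraries, a log2 fold change of 0.051 (SE 0.22). Ddit3 was the steadiest gene of the branch, with 1.35 times between its highest and lowest library. It shares 71 bases with Mars, a tRNA synthetase gene with 542% of its mean count, and 77 bases with Mbd6, so the same doubt about strand applies.

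The ATF4 targets varied more. Asns, asparagine synthetase, was at 26.4, 60.3 and 87.6 CPM in the PKCzeta libraries, against 43.2, 56.1 and 27.8 CPM in the GFP libraries (log2 fold change 0.46, SE 0.42, edgeR adjusted p 0.917). Its lowest and its highest library were both labelled PKCzeta, and without replicate 4-2 the log2 fold change was 0.046. Chac1, an enzyme that breaks down glutathione and picked here after its values were seen, was at 3.79, 2.73 and 15.7 CPM in the PKCzeta libraries, against 10.1, 17.5 and 1.05 CPM in the GFP libraries. No other of the 30 genes had a wider range over the 6 libraries, 16.6 times from the lowest to the highest, with both groups spanning most of it. Its log2 fold change was -0.36 (SE 1.01), and without PKCzeta replicate 4-2 it was -1.54. Sesn2, a stress-induced inhibitor of mTORC1, was at 9.06, 7.69 and 9.46 CPM in the PKCzeta libraries, against 9.30, 11.2 and 10.99 CPM in the GFP libraries (log2 fold change -0.26, SE 0.20). Trib3, a pseudokinase induced with CHOP, had -0.21 (SE 0.39), with its highest value, 15.0 CPM, in GFP replicate 1-1 and its lowest, 4.84 CPM, in GFP replicate 3-1. GFP replicate 3-1 was thus the lowest library for Atf4, Trib3 and Chac1, and the next lowest for Asns.

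The element that ATF4 binds with C/EBP partners was searched on both strands as TGATGNAA. It was found in 3 of the 6 genes of the branch (Asns, Chac1 and Trib3) and in 1 of the 15 ER genes with a window (Herpud1), beside 3.97% of all windows. As the branch was listed for its known tie to ATF4, this too is a description and not a test. The 3 branch genes, compared after their values were seen, had the widest ranges of the branch, at 3.32, 16.6 and 3.09 times. Atf4, Ddit3 and Sesn2 had 1.94, 1.35 and 1.46 times. Herpud1, which also has the element, had 1.76 times, and a link between the element and the range was not tested. Capitals mark the element in Chac1 (chr2:119350992-119351291, + strand) and Asns (chr6:7693160-7693459, - strand), which are shown as the most variable and the most abundant of those targets.
Chac1: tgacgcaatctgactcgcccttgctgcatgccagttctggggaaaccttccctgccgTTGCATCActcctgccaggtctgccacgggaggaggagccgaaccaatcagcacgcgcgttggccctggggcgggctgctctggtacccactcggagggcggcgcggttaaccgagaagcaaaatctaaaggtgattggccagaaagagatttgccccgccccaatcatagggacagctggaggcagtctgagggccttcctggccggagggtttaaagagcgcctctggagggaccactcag
Asns: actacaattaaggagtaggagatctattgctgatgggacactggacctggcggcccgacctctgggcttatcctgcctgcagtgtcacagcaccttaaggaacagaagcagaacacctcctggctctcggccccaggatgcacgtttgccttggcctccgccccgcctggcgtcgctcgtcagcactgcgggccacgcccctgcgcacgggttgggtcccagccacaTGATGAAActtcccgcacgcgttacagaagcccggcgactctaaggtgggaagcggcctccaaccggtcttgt

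The heat shock genes Hsph1, Hspb1, Hspa1a and Hspa1b had the 4 highest fold changes of the 30. In this group 6 of 7 genes were higher (median 0.59 on the log2 scale), and without PKCzeta replicate 4-2 3 of 7 were higher, with a median of -0.013. The near-identical copies Hspa1a and Hspa1b are counted here as separate genes, and the median of 0.59 is the value of Hspa1b itself. Hsph1, the HSP110 that exchanges the nucleotide of HSP70, was at 7.08, 14.1 and 42.1 CPM in the PKCzeta libraries, against 9.03, 13.1 and 10.1 CPM in the GFP libraries. Replicate 4-2 stood 3.99 times above the mean of the other PKCzeta libraries, and those lay in or near the GFP range. On the log2 scale Hsph1 was at 0.97 (SE 0.58, 95% interval -0.37 to 2.32, edgeR adjusted p 0.917), and at -0.013 without replicate 4-2.

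Hspa1a and Hspa1b, the stress-inducible HSP70 genes, lie next to each other on chromosome 17 (34969359 to 34972156 and 34956429 to 34959238) and are near-identical copies, so the split of reads between them is uncertain. Hspa1a was at 2.43, 3.53 and 13.6 CPM in the PKCzeta libraries, against 2.29, 5.31 and 5.25 CPM in the GFP libraries. Hspa1b was at 5.53, 6.23 and 22.7 CPM in the PKCzeta libraries, against 4.15, 9.06 and 9.62 CPM in the GFP libraries. In both, PKCzeta replicate 4-2 was the highest library and GFP replicate 1-1 the lowest. Their sum was 18.0 ± 15.9 CPM with the PKCzeta label and 11.9 ± 4.73 CPM with the GFP label (SD, n = 3 each), and the PKCzeta mean without replicate 4-2 was 8.86 CPM. Log2 fold changes were 0.61 (SE 0.65) for Hspa1a and 0.59 (SE 0.58) for Hspa1b, and -0.52 and -0.37 without replicate 4-2. Their promoter windows differ at 4 of 300 bases, marked by capitals in Hspa1a (chr17:34972107-34972406, - strand) and Hspa1b (chr17:34959189-34959488, - strand), and are shown to give how alike the copies are.
Hspa1a: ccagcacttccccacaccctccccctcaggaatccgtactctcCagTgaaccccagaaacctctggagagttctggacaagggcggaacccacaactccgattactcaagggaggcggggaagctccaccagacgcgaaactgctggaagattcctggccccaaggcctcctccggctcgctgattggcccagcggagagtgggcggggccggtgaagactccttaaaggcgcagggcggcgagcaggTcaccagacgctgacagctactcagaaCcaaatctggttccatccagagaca
Hspa1b: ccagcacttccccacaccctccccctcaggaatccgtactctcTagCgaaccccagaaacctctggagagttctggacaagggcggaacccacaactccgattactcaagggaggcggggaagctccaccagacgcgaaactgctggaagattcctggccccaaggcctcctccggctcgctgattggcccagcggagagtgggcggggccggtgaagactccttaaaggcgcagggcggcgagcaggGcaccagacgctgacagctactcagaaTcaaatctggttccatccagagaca

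The heat shock element, searched on both strands as GAA, TTC and GAA with any 2 bases between neighbours, was found in 1 of the 5 heat shock genes with a window (Hsph1) and in no other of the 26 genes, beside 0.603% of all windows. This strict form needs 3 exact repeats, so windows with looser forms are not counted. Capitals mark it in the Hsph1 window (chr5:149636266-149636565, - strand), shown because Hsph1 had the highest fold change of the 30.
Hsph1: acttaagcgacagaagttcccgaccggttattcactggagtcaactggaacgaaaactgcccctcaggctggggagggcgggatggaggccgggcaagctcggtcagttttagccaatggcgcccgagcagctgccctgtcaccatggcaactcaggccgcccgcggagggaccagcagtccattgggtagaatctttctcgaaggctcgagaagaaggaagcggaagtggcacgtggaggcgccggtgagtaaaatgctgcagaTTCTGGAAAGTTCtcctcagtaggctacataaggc

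Hspb1 differed from Hsph1, Hspa1a and Hspa1b in the order of its libraries. This gene of a small heat shock protein that guards actin was at 21.7, 45.8 and 28.9 CPM in the PKCzeta libraries, against 20.9, 16.0 and 19.9 CPM in the GFP libraries. It was the only gene of the 30 higher in every PKCzeta library than in every GFP library, and its highest library was 4-1, not 4-2. Of all tested genes 4.72% were higher without overlap, so 1 such gene among 30 is no special trait. The gap was narrow, with 21.7 CPM in PKCzeta replicate 2-1 and 20.9 CPM in GFP replicate 1-1. Hspb1 averaged 32.1 ± 12.4 CPM with the PKCzeta label and 18.9 ± 2.61 CPM with the GFP label (SD, n = 3 each), and its log2 ratio was 0.76 (SE 0.28, 95% interval 0.11 to 1.41). The unadjusted edgeR p was 0.0268 and the edgeR adjusted p 0.871. Without GFP replicate 1-1, GFP replicate 3-1 or PKCzeta replicate 4-1, 0 of the 30 genes had an unadjusted edgeR p under 0.05. Hspb1 was at 0.42 on that scale without PKCzeta replicate 4-1 and at 0.84 without replicate 4-2.

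Hspa8 and Hsp90aa1 had the same top library in each group. Hspa8 was at 1233, 1518 and 1877 CPM in the PKCzeta libraries, against 945, 1752 and 917 CPM in the GFP libraries. Hsp90aa1, the inducible cytosolic HSP90, was at 132, 189 and 318 CPM in the PKCzeta libraries, against 139, 225 and 130.5 CPM in the GFP libraries. For both genes PKCzeta replicate 4-2 was highest and GFP replicate 1-4 next, and the log2 fold changes were 0.36 (SE 0.30) and 0.37 (SE 0.34). Without PKCzeta replicate 4-2 they were 0.20 for Hspa8 and -0.030 for Hsp90aa1, and Hspa8 was at 0.73 without GFP replicate 1-4. Dnajb1, an HSP40 that is a target of HSF1 as Hsph1 is, was picked after its values were seen because it ran the other way. It was at 44.6, 35.8 and 29.5 CPM in the PKCzeta libraries, against 39.3, 35.1 and 39.6 CPM in the GFP libraries. PKCzeta replicate 4-2, the top library for Hsph1, Hspa1a and Hspa1b, was the lowest for Dnajb1 (log2 fold change -0.053, SE 0.19).

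**Figure D4:**
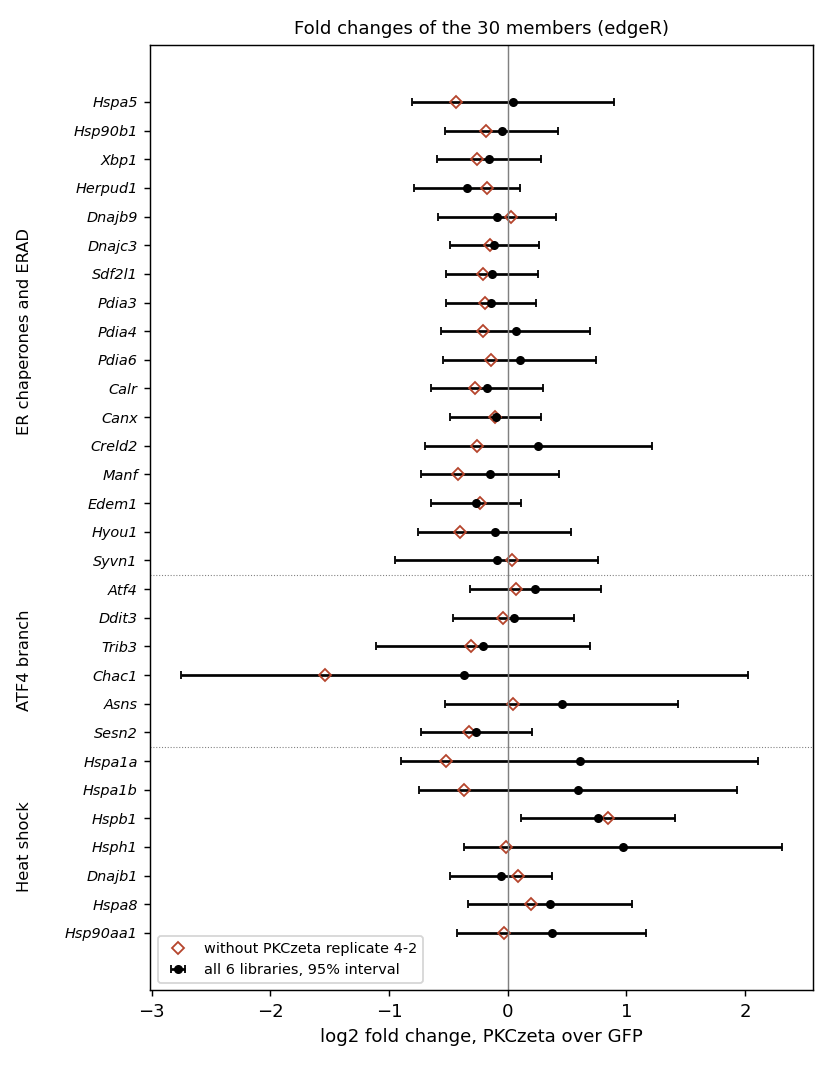
Log2 fold change of each gene, PKCzeta over GFP, with its 95% interval (black) and the value without PKCzeta replicate 4-2 (open diamonds). The interval of Hspb1 alone leaves out 0, at 0.11 to 1.41. Over all tested genes, 2.41% were higher and 3.07% lower with an unadjusted edgeR p under 0.05. Without replicate 4-2, 23 of the 30 genes lie below 0, where 17 did with all 6 libraries. The median of all tested genes was 0.0020 without it. Hspa1a, Hspa1b, Hsph1 and Hspa5 are among the 23.

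Markers of other cell types moved across the same libraries. PKCzeta replicate 4-2 and GFP replicate 1-4, the highest libraries for Hspa8 and Hsp90aa1, also had the highest sums of the 6 Paneth markers and of the 7 plasma cell markers, and the lowest mitochondrial shares. The plasma cell sum was 759, 1040 and 1369 CPM in PKCzeta replicates 2-1, 4-1 and 4-2, against 890, 2342 and 824 CPM in GFP replicates 1-1, 1-4 and 3-1. Most of it was Jchain, at 1136 CPM in PKCzeta replicate 4-2 and 2074 CPM in GFP replicate 1-4. The 7 plasma cell markers did not move together. GFP replicate 1-4 was highest for 3 of them and GFP replicate 3-1 for 2, Sdc1 and Prdm1. Pou2af1 was highest in PKCzeta replicate 2-1 and Irf4 in PKCzeta replicate 4-2. Goblet cell markers, 7 of 7 tested, summed to 13649 to 16165 CPM in the PKCzeta libraries, against 16236 to 20760 CPM in the GFP libraries. Of these markers 5 had log2 fold changes below 0, while Agr2 and Spink4 had 0.060 and 0.21. Ranges did not overlap for 2 of the 7 (Tff3 and Zg16, both lower), beside 5.66% of all tested genes. The sum of the 12 enterocyte markers was 28226, 35496 and 16855 CPM in the PKCzeta libraries, against 47596, 44226.5 and 39066 CPM in the GFP libraries. Replicate 4-2 was thus lowest, and all 12 markers had fold changes below 0, where 54.3% of all tested genes were above 0. Group ranges did not overlap for 6 of the 12, all lower, beside 5.66% of all tested genes. With an unadjusted edgeR p under 0.05, 6 were lower, beside 3.07%, and 0 passed an adjusted p of 0.05. The 7 neutrophil markers summed to 6.27, 51.8 and 30.6 CPM in the PKCzeta libraries, with replicate 4-1 on top as for Hspb1, against 5.17, 5.44 and 2.00 CPM in the GFP libraries. Of the 6 that were tested, 4 were higher without overlap of the ranges, beside 4.72% of all tested genes. All 6 were higher with an unadjusted edgeR p under 0.05, beside 2.41%, and 0 passed an adjusted p of 0.05. The 10 smooth muscle markers, from a tissue where Hspb1 is abundant, had sums of 1089 to 1361 CPM in the PKCzeta libraries against 678 to 1633 CPM in the GFP libraries, and the 11 immediate early genes had 274 to 395 CPM in the PKCzeta libraries against 312 to 583 CPM in the GFP libraries. The 6 lymphocyte markers ran from 9.89 to 133 CPM in the PKCzeta libraries and from 9.02 to 54.4 CPM in the GFP libraries. The part of these cells in the results was not tested. Pancreatic acinar markers, whose cells also hold much ER, were near 0 in every library, with sums over 9 genes of 1.58 to 2.27 CPM in the PKCzeta libraries against 1.45 to 3.11 CPM in the GFP libraries, and Cela3b and Pnlip at 0 throughout.

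No other gene of the same pathways passed the test. Of 111 further genes in 5 lists, 110 were tested, 0 passed an adjusted p of 0.05 in edgeR, and with an unadjusted p under 0.05 there were 0 higher and 5 lower, beside 2.41% and 3.07% of all tested genes. Ranges of the groups did not overlap for 4 of the 110 that were higher and 7 that were lower, beside 4.72% and 5.66%, so these counts lie near the shares of all genes. Among other ER folding enzymes 13 of 17 tested genes were lower (median -0.12 on the log2 scale), and among other ERAD and translocon genes 21 of 25 were lower, with a median of -0.11. On log2(TPM + 1) the median of all genes moved to 0.14, and the medians of these lists, and of the 17 ER members, were -0.040, -0.017 and -0.025 relative to it, although 14 of 17, 22 of 25 and 15 of 17 genes had values above 0 there. The 4 folding genes with the smallest unadjusted p were P4hb, the main disulfide isomerase (log2 fold change -0.47, SE 0.20), Cnpy2 (-0.35, SE 0.17), Ganab, a glucosidase of glycoprotein folding (-0.27, SE 0.16), and the ER oxidase gene Ero1l (-0.18, SE 0.14). In the ERAD list these were Sel1l, the partner of the SYVN1 ligase, Os9, which encodes a lectin, Edem2 and Sec63. Sel1l was at 145 ± 10.8 CPM with the PKCzeta label and 188 ± 17.8 CPM with the GFP label, and Os9 at 121 ± 7.47 and 164 ± 32.6 CPM (SD, n = 3 each). Edem2 and Sec63 had log2 fold changes of -0.26 (SE 0.19) and -0.21 (SE 0.15). P4hb, Sel1l and Os9 are among the 7 genes lower without overlap, and their edgeR adjusted p was 0.877 for Sel1l, 0.880 for Os9 and 0.901 for P4hb.

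The genes of the 3 classical sensors had fold changes near 0. Of 12 genes of sensors and regulators 10 were lower (median -0.062), but on log2(TPM + 1) 8 of 12 were higher (median -0.020 relative to all genes) and without GFP replicate 3-1 7 of 12. Ern1, Eif2ak3 and Atf6, for IRE1, PERK and ATF6, had -0.020 (SE 0.28), -0.071 (SE 0.20) and -0.052 (SE 0.15). The epithelial form of IRE1, encoded by Ern2, had 0.17 (SE 0.26). Of this list Creb3l3, a membrane-bound transcription factor of liver and intestine, had the smallest p, at 167 ± 47.4 CPM with the PKCzeta label and 322 ± 79.3 CPM with the GFP label (SD, n = 3 each, log2 fold change -0.95, SE 0.26, edgeR adjusted p 0.858). Its relatives Creb3 and Creb3l2 had -0.34 (SE 0.15) and -0.62 (SE 0.28), and Wfs1, the ER membrane protein of Wolfram syndrome, had -0.67 (SE 0.30).

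Other genes of the integrated stress response, named for the shared step of eIF2alpha phosphorylation, were higher in 24 of 31, with a median of 0.19, and without PKCzeta replicate 4-2 in 11 of 31, with a median of -0.081. The 4 with the smallest unadjusted p were Slc3a2, Eif2ak4, Psat1 and Slc7a11. Slc3a2, the heavy chain of amino acid exchangers, was at 97.5 ± 10.5 CPM with the PKCzeta label and 152 ± 19.2 CPM with the GFP label (SD, n = 3 each), which is -0.64 on the log2 scale (SE 0.16, edgeR adjusted p 0.858) and against the direction of the list. Eif2ak4, the amino acid sensor GCN2, had 0.58 (SE 0.26), Psat1 of serine synthesis 0.99 (SE 0.50), and Slc7a11, the cystine transporter, 1.41 (SE 0.75). Of 25 other heat shock genes 21 were higher, with a median of 0.24, and 19 of 25 without replicate 4-2, with a median of 0.096. Cacybp (0.37, SE 0.20), the mitochondrial chaperonin gene Hspe1 (0.49, SE 0.30), the constitutive HSP90 gene Hsp90ab1 (0.41, SE 0.27) and the HSP70 cochaperone gene Bag3 (-0.34, SE 0.22) had the smallest unadjusted p of that list. Relative to all genes on log2(TPM + 1), the medians of these other lists were 0.17 for the integrated stress response and 0.28 for heat shock, and that of the 7 heat shock members was 0.40. The plot of fold changes by list sets the lists side by side.

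**Figure D5:**
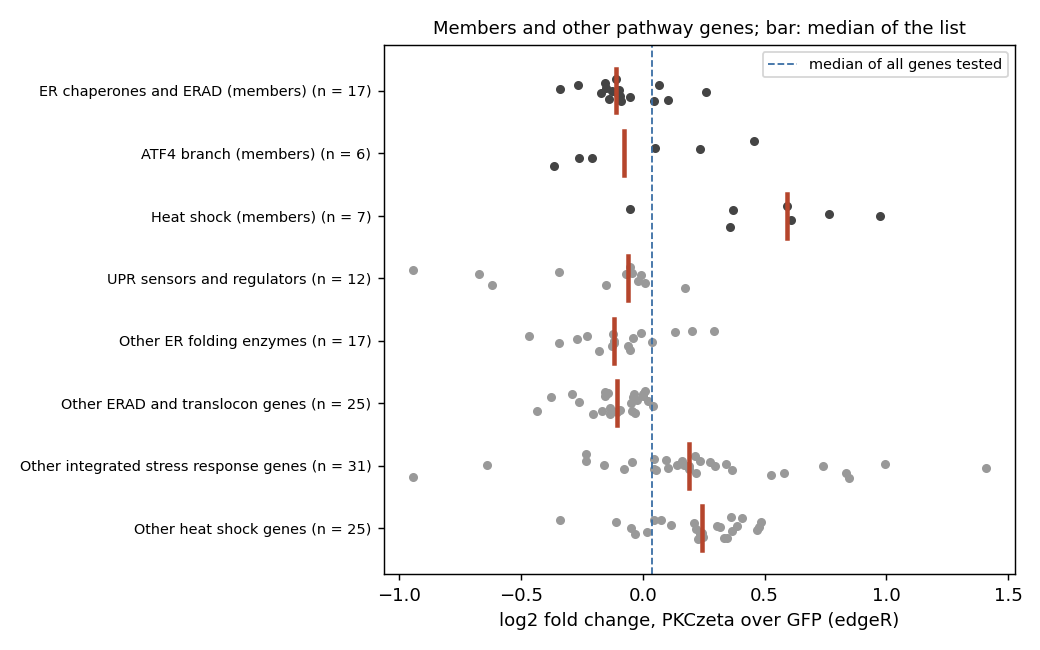
Log2 fold changes, PKCzeta over GFP, of the 30 genes in their 3 groups (dark points) and of 5 lists of other pathway genes (grey points), with the median of each list as a red bar and that of all tested genes, 0.035, as a dashed line. The medians of ER lists lie left of the line and those of heat shock lists right of it, at 0.59 for the 7 members and 0.24 for 25 others.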

How the data were processed

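Total RNA of mouse small intestine was measured in 6 libraries, 3 labelled PKCzeta and 3 labelled GFP. The submitters' processing notes name FastQC, HISAT2, StringTie and Trimmomatic and the build mm10, without versions. The counting program and its strand setting are not given in the sources used here. Per the file headers, the deposited table holds a read count, an FPKM and a TPM per gene and library. The deposited counts are raw and whole, the deposited FPKM was not used, and the deposited TPM was used for levels between genes and in an alternative test. Of 45777 gene IDs, 45679 matched the RefSeq gene table of the same build, which gave positions counted from 1.

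Counts were filtered with filterByExpr, scaled by TMM and tested with edgeR 4.0.16 (R 4.3.3, quasi-likelihood, robust), with Benjamini-Hochberg adjustment over 18456 genes at 0.05. SEs are the log2 fold change divided by the square root of F, and 95% intervals use the t quantile of the fit. The biological coefficient of variation was 0.354, so with 3 libraries per group the spread between libraries, not depth, sets the precision. Deviations used log2 CPM with a prior count of 2. The fit was tested on simulated data with known changes. Alternatives were other scalings and filters, leaving out 100 ribosomal RNA and mitochondrial rows, DESeq2 1.42.0, limma 3.58.1 (voom with quality weights, and log2(TPM + 1)), and leaving out each library.

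The members and lists were chosen with earlier results of these data known. Values per library were to be given for Hspa5, Xbp1, Atf4, Ddit3, Hspa1a, Hspa1b and the 3 genes of each group with the smallest unadjusted p (Herpud1, Edem1 and Pdia3, then Asns, Sesn2 and Atf4, then Hspb1, Hsph1 and Hspa8), and up to 4 genes of each other list by the same order. Creld2, Chac1, Dnajb1, Hsp90aa1, the enterocyte marker Lct, and the single values given for Pdia4, Pdia6, Canx, Dnajb9, Syvn1 and Trib3 were chosen after their values were seen.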

Additional observations from a re-analysis of the deposited data

How the results depend on the processing

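No gene of the 30 was called under any of the 14 alternatives run, with a smallest adjusted p-value over these of 0.481, in DESeq2. DESeq2 called 76 of all genes, where edgeR called 0. Of 420 alternative fold changes, 380 kept their direction and 40 turned, 24 of them on leaving out 1 library. The cause was not tested.

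On log2(TPM + 1) the median of all genes moved to 0.14, and the medians became 0.15 for the 30 genes and 0.12 for the ER genes. Fold changes that turned there were 0.14 for Hsp90b1, 0.076 for Xbp1, 0.15 for Dnajb9, 0.12 for Dnajc3, 0.086 for Sdf2l1, 0.083 for Pdia3, 0.033 for Calr, 0.12 for Canx, 0.041 for Manf, 0.039 for Hyou1, 0.17 for Syvn1, 0.11 for Trib3 and 0.14 for Dnajb1. With voom weights Hspa5 was -0.061, Trib3 0.20 and Chac1 0.50.

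Leaving out 1 library at a time, the median of the heat shock genes ran from -0.013 (without PKCzeta replicate 4-2) to 0.85, that of the ATF4 branch from -0.18 to 0.26 and that of the ER genes from -0.21 to -0.052. Ranges that crossed 0 were -0.44 to 0.28 for Hspa5, -0.19 to 0.085 for Hsp90b1, -0.27 to 0.065 for Dnajb9, -0.17 to 0.0059 for Dnajc3, -0.21 to 0.25 for Pdia4, -0.14 to 0.31 for Pdia6, -0.26 to 0.54 for Creld2, -0.40 to 0.10 for Hyou1 and -0.41 to 0.25 for Syvn1. In the ATF4 branch they were -0.042 to 0.12 for Ddit3, -0.56 to 0.088 for Trib3 and -1.54 to 0.41 for Chac1. In the heat shock group they were -0.52 to 0.92 for Hspa1a, -0.37 to 0.89 for Hspa1b, -0.013 to 1.32 for Hsph1, -0.25 to 0.085 for Dnajb1 and -0.030 to 0.66 for Hsp90aa1. No paired analysis was possible because the groups share no replicate numbers, and the first digit of those numbers, which no label explains, is never the same in both groups.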
